A study of Mus musculus with 62 samples.

Results

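The 10 genes described here take up, store, export or sense iron: Tfrc, Trf, Slc11a2, Steap4, Fth1, Ftl1, Slc40a1, Cp, Ireb2 and Aco1. They were chosen by name for those roles, with earlier results of these data known. They were looked up in the deposited table of brown adipose tissue RNA, which lists 47643 gene symbols. All 10 were found, and all 10 were among the 12581 genes that reached 1 TPM or more in 5 or more libraries and were tested. TPM is an abundance scaled for transcript length and library size, so levels can be set side by side between genes, but it keeps no read totals and the depth of each library is unknown. The study took brown fat, the heat-producing fat, from female mice with a stated age of 2 months. CAC mice had been injected with melanoma cells that cause cachexia, the tumour-linked loss of body mass, NCAC mice with melanoma cells that do not cause it, and Con mice had a mock injection. Libraries came from 2, 4, 6 and 8 weeks after the injection. That gives 12 groups of 5 libraries, except for CAC at 8 weeks with 7, and 62 libraries in all. Within CAC, NCAC or Con, any change of age with week cannot be told apart from the week itself. No transgene, deletion or drug is named for any group. The sample labels give the strain as C57BL/6J, the series text names NCI Ath/nude mice, the RNA protocol mentions LLC cells and another time, and 1 animal number stands in a CAC and a Con title at 4 weeks, so strain and animal numbering are uncertain.

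Iron enters most cells bound to transferrin, the carrier protein encoded by Trf, through the transferrin receptor encoded by Tfrc. A ferrireductase such as the one encoded by Steap4 reduces the iron, and the divalent metal transporter encoded by Slc11a2 carries it into the cytosol. Iron that is not used is stored inside a shell of heavy and light ferritin chains (Fth1 and Ftl1) or leaves through ferroportin (Slc40a1), the cellular iron exporter, with the help of the ferroxidase ceruloplasmin (Cp). Iron regulatory proteins, encoded by Aco1 and Ireb2, sense the supply: when iron is scarce they bind a short hairpin in mRNAs called the iron-responsive element, which blocks translation from a 5′ UTR and protects the mRNA from decay in a 3′ UTR. Brown fat is rich in mitochondria, whose heme and iron-sulphur proteins need iron.

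The hairpins are shown first because they are the sequences through which the iron regulatory proteins act on genes of this set. GENCODE M21 transcripts were searched for the loop CAGTGN, with a C 6 bases before it and with the 5 bases before the loop pairing with the 5 bases after it (G-U pairs allowed). Such elements were found in 4 of the 10 genes: 1 each in the 5′ UTR of Fth1, Ftl1 and Slc40a1, and 4 in the 3′ UTR of Tfrc. Over all 21875 protein-coding genes searched, 1.32% held the letters anywhere in a transcript, 0.128% in a 5′ UTR and 0.581% in a 3′ UTR. Each element is given as 30 bases, 5′ to 3′ on the strand of the transcript, with the loop in capitals (build GRCm38, which is mm10). The positions are chr19:9982732-9982761 on the plus strand for Fth1, chr7:45459778-45459807 on the minus strand for Ftl1 and chr1:45925464-45925493 on the minus strand for Slc40a1. The Tfrc elements lie on the plus strand at chr16:32631219-32631248, chr16:32631598-32631627, chr16:32631663-32631692 and chr16:32631710-32631739.
Fth1: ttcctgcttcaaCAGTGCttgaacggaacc
Ftl1: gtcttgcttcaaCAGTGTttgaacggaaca
Slc40a1: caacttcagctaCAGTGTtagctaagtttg
Tfrc element 1: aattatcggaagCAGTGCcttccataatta
Tfrc element 2: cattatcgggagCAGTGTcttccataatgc
Tfrc element 3: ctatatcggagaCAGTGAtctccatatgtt
Tfrc element 4: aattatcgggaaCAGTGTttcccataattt
The ferritin elements shared 26 of 30 bases with each other, and Fth1 shared 13 with Slc40a1. No match was found in the transcripts of Slc11a2, Steap4, Cp, Trf, Ireb2 or Aco1, which says only that these letters were not in the transcripts searched. RNA levels alone do not report on translation, so the data bear on these elements only through transcript abundance.

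Across all 62 libraries the ferritin chains were by far the most abundant of the 10 transcripts. Fth1 averaged 2946 TPM and ranked number 20 of all tested genes by mean level, and Ftl1 averaged 1500 TPM and ranked number 38. A middle tier was formed by Steap4 with a mean of 109 TPM, Aco1 with 93.8 TPM and Trf with 90.4 TPM. Tfrc (18.0 TPM), Ireb2 (14.5 TPM), Slc11a2 (12.4 TPM) and Cp (11.4 TPM) were lower, and the exporter Slc40a1 was the lowest at 3.81 TPM. Of the iron regulatory proteins, the transcript of Aco1, which doubles as cytosolic aconitase, was thus more abundant than that of Ireb2. Both ferritin genes have processed pseudogenes, and how reads shared with these were counted is not given in the sources used here, so their levels are uncertain in that respect.

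**Figure D1:**
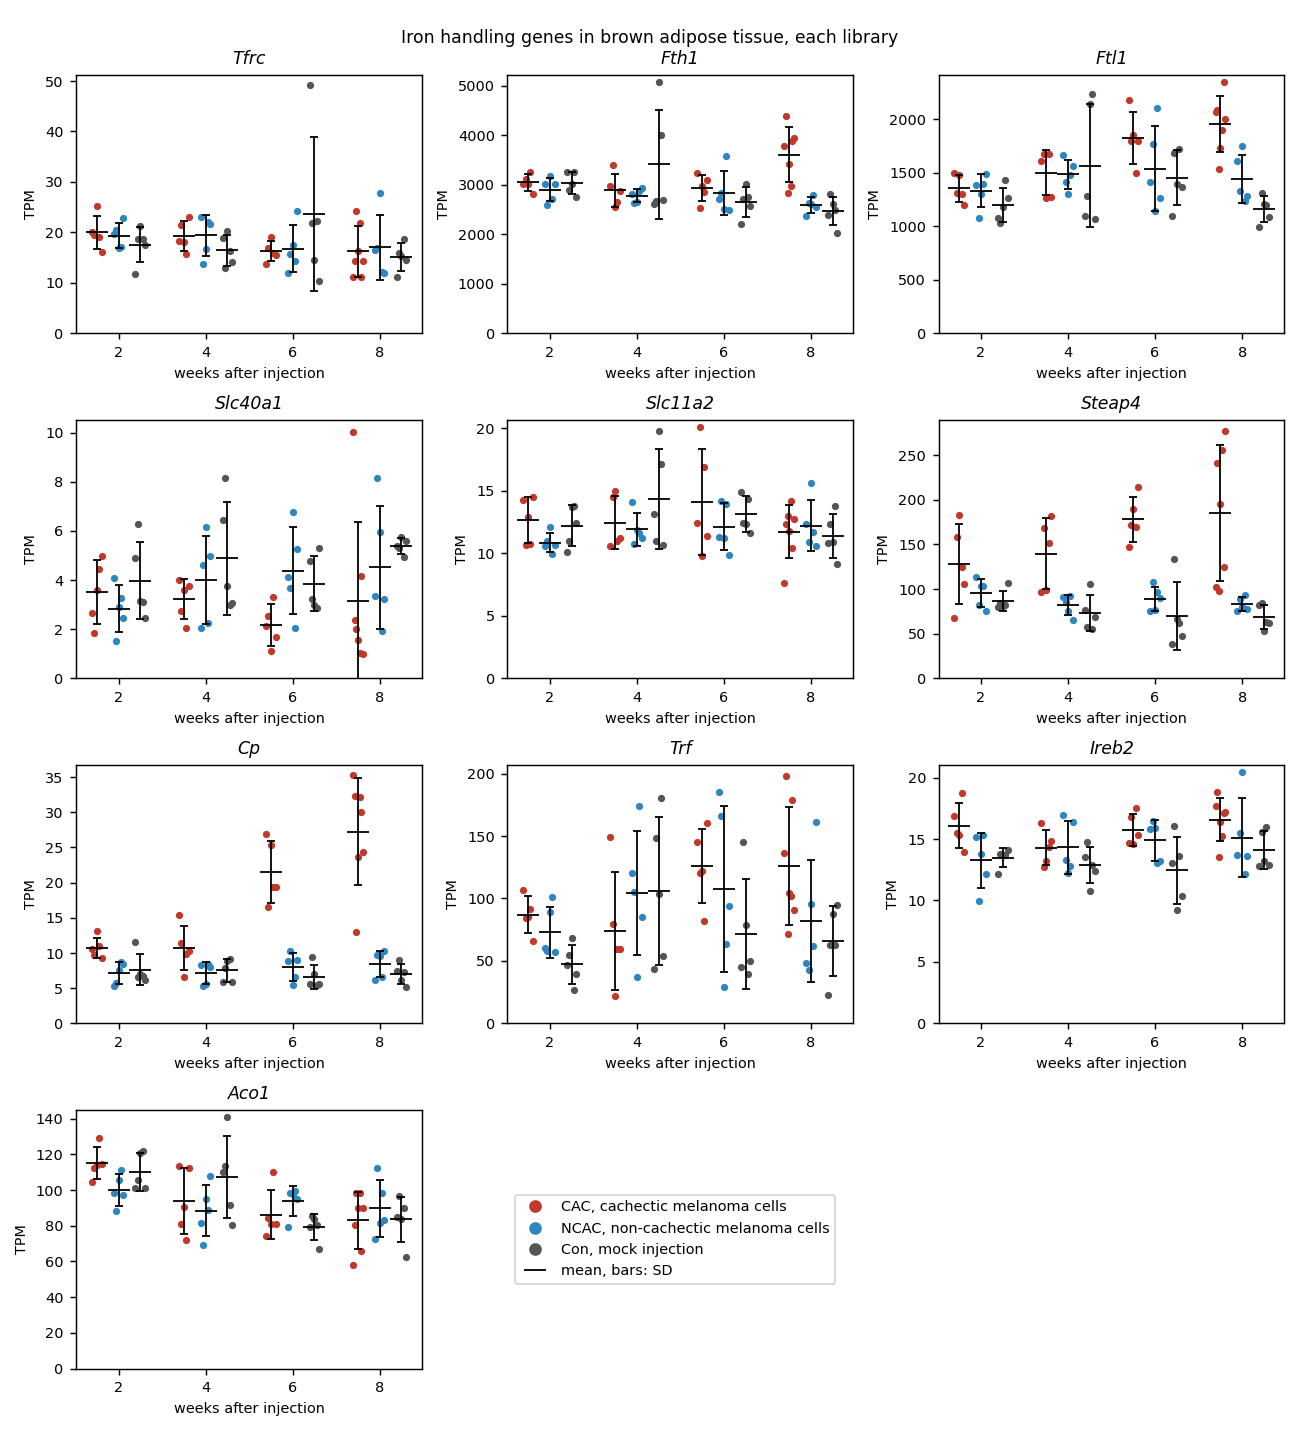
TPM of each iron handling gene (vertical axis from 0, a separate scale per gene) in every library by weeks after injection, with the group mean and SD as a bar (the bar of Slc40a1 in CAC at 8 weeks is clipped at 0). Cp and Steap4 in the CAC libraries at 6 and 8 weeks stand above the NCAC libraries of the same weeks, and Slc40a1 at 8 weeks spreads from 0.99 to 10.03 TPM in CAC while the Con libraries lie between 4.92 and 5.74 TPM.

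A few features of the whole series touch these genes. The share of TPM taken by mitochondrially encoded genes was 44.3 to 55.6% in CAC at 8 weeks and 59.9 to 65.5% in Con. TPM sums to a fixed total, and the median of all tested genes stood 0.28 (log2) higher in CAC than in Con at that week. The part of the mitochondrial share in that median was not tested. A second set of differences, after rescaling by the median of ratios to a reference library, is given beside the first. It puts that median at -0.01, which such rescaling does by its design. CAC library 3 of 8 weeks stood apart, with haptoglobin (Hp) at 391 TPM against 4395 to 13174 TPM in the other CAC libraries of that week and with 26831 TPM from 8 erythroid genes against 103 to 2767 TPM. Con libraries 3 and 4 of 4 weeks stood apart in the ferritin genes and in their mitochondrial share, as described below. Brown adipocyte markers were present in all libraries (Ucp1 from 1640 to 9679 TPM), which fits the tissue label. Of 11 tested macrophage markers 10 were called higher in CAC than in Con at 8 weeks, beside 52.1% of all tested genes, and the summed level of the 12 listed genes was 250 to 615 TPM in CAC, 98.2 to 183 TPM in NCAC and 126 to 164 TPM in Con. In such bulk samples fewer cells of a type and less RNA per cell cannot be told apart, and the part of macrophages in the differences below was not tested.

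At 8 weeks, Cp, Steap4, Fth1, Ftl1 and Trf were called higher and Slc40a1 lower in CAC than in Con on the TPM scale. The calls of Fth1 and Trf were lost after rescaling, and that of Slc40a1 in a fit of the groups compared alone. Called means a limma p below 0.05 after Benjamini-Hochberg adjustment, and differences are on the scale of log2(TPM + 1), which understates the change of low genes. Of the 10 genes 5 were called higher and 1 lower, beside 52.1% and 1.97% of all tested genes (54.0% in either direction), so the number of calls is near the background and only single genes are described. The median difference of the 10 was 0.38, beside 0.28 for all tested genes. After rescaling 3 were called higher and 2 lower, beside 13.4% and 13.1% of all genes. Libraries of CAC and Con did not overlap for 4 of the 10, all higher in CAC, beside 14.6% of all tested genes. Without CAC library 3, 7 of the 10 were called, beside 58.2% of all genes in that fit.

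**Figure D2:**
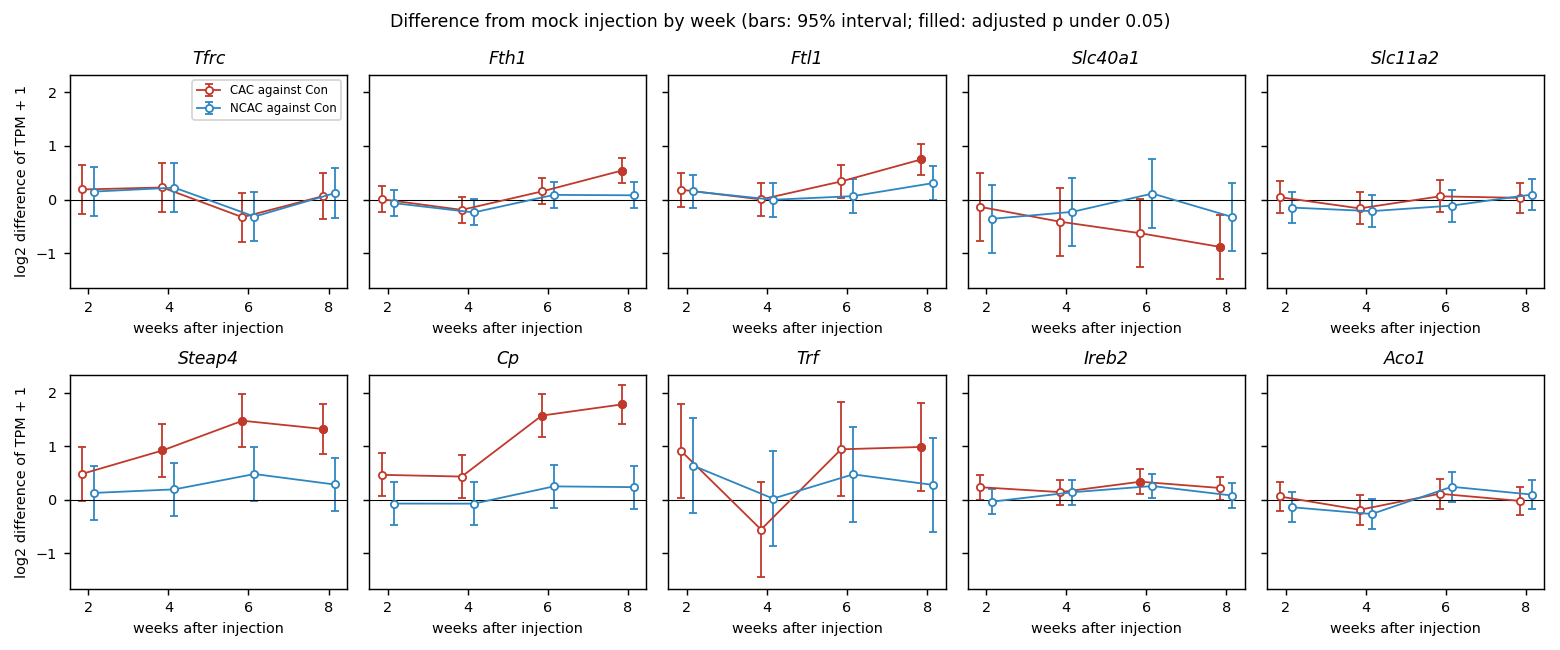
Log2 difference of TPM + 1 from the mock injection (vertical axis) by weeks after injection for CAC and NCAC, with 95% intervals and filled symbols for an adjusted p under 0.05. All filled symbols belong to CAC: Steap4 from 4 weeks, Cp and Ireb2 at 6 weeks, and 6 genes at 8 weeks.

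Of the uptake genes, Steap4, the ferrireductase, differed most. Its 7 CAC libraries at 8 weeks ran from 98.2 TPM through a median of 196 TPM to 278 TPM. The 5 Con libraries held 82.5, 84.0, 53.0, 62.8 and 61.4 TPM. The 5 NCAC libraries held 75.5, 89.1, 79.8, 93.3 and 77.3 TPM. Each CAC library was above each Con and NCAC library, and the CAC libraries spread widely, with libraries 1, 3 and 6 at 102, 98.2 and 124 TPM and the other 4 at 196 TPM or more. The mean was 2.69 times that of Con, a difference of 1.32 (SE 0.23, adjusted p = 8.62e-06), and 0.97 after rescaling (adjusted p = 0.000577). Against NCAC the difference was 1.04 (SE 0.23, adjusted p = 0.000431), with the same CAC libraries in both comparisons. Without CAC library 3 the difference from Con was 1.45.

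Because Steap4 had the largest difference of the uptake genes, 60 bases of its promoter are printed, from 130 to 71 bases before the RefSeq start (chr5:7960342-7960401, plus strand, GRCm38.p6). After the values had been seen, RefSeq promoter windows, found for 7 of the 10 genes and running from 250 bases before to 50 after each start, were searched on both strands for TTCNNNGAA, letters that STAT factors bind, and TTGCNNAA, a form of the letters that C/EBP factors bind. The capitals mark the matches, at -116 and -87.
Steap4: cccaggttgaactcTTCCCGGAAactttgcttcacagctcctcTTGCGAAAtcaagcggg
The former letters stood in 8.30% and the latter in 10.8% of the 32851 windows of all genes. A match to TTGCNNAA was also found once in a window of Cp (at -70), and 2 matches were found in a window of Fth1. The matches describe the sequence only, and no binding was measured.

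Trf, the gene of the iron carrier transferrin, was called higher in CAC than in Con at 8 weeks on a wide spread. CAC libraries ran from 71.8 through a median of 104 to 198 TPM, and Con libraries held 22.8, 62.7, 87.9, 62.4 and 94.4 TPM. The ranges overlapped, and Con library 1 was far below its group. The difference was 0.99 (SE 0.41, adjusted p = 0.0365), and 0.63 after rescaling (adjusted p = 0.214). The call was lost without CAC library 1 (adjusted p = 0.0528), CAC library 2 (0.0839), CAC library 6 (0.0723) or Con library 1 (0.201), and also with the replicate numbers as a block (0.0767), with no filter on low values (0.0623) and without mitochondrially encoded genes (0.265). Against NCAC, with libraries at 48.3, 42.5, 95.9, 61.96 and 161 TPM, the difference was 0.71 (95% interval -0.11 to 1.52, adjusted p = 0.158).

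The other uptake genes, the transferrin receptor Tfrc and the metal transporter Slc11a2, did not pass the test at 8 weeks. Tfrc held 11.1 to 24.3 TPM in CAC with a median of 14.4 TPM, and 11.1, 15.9, 15.3, 18.7 and 14.5 TPM in Con. Its difference was 0.06 (95% interval -0.37 to 0.49), and this miss does not show that the levels were equal. CAC library 3, the library with the high erythroid level, was the highest of its group in Tfrc at 24.3 TPM. Slc11a2 held 7.65 to 14.2 TPM in CAC and 9.12 to 13.7 TPM in Con, with a difference of 0.03 (95% interval -0.24 to 0.31). After mitochondrially encoded genes were removed, its difference turned to -0.35 (adjusted p = 0.0343) from Con and -0.34 (adjusted p = 0.0456) from NCAC, and after rescaling it was -0.30 from Con (adjusted p = 0.0782), so the direction of Slc11a2 depends on the scaling.

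Both storage genes were higher in CAC at 8 weeks on the TPM scale. Fth1, the heavy chain that oxidises iron for storage, ran from 2831 through a median of 3777 to 4381 TPM in CAC. In Con it held 2387, 2815, 2598, 2491 and 2028 TPM, and in NCAC 2361, 2635, 2613, 2798 and 2545 TPM. The groups did not overlap, but only by the small step from the highest Con library to CAC library 3. The mean was 1.46 times that of Con, a difference of 0.54 (SE 0.11, adjusted p = 0.000104). Rescaling took the difference to 0.18 (adjusted p = 0.0978) and removal of mitochondrially encoded genes to 0.14 (adjusted p = 0.147), both short of a call. Against NCAC it was 0.46 (adjusted p = 0.00113) and 0.20 after rescaling (adjusted p = 0.0725), and 0.17 without mitochondrially encoded genes (adjusted p = 0.0681).

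Ftl1, the light chain that helps form the iron core, ran from 1538 through 2001 to 2352 TPM in CAC. In Con it held 992, 1315, 1212, 1197 and 1088 TPM. No CAC library fell within the Con range, and the lowest was again CAC library 3. The mean was 1.69 times that of Con, a difference of 0.75 (SE 0.14, adjusted p = 4.24e-05), and 0.39 after rescaling (adjusted p = 0.0043). NCAC, with 1609, 1330, 1752, 1238 and 1283 TPM, overlapped CAC, and the difference from it was 0.44 (adjusted p = 0.0134), 0.18 after rescaling (adjusted p = 0.221), 0.15 without mitochondrially encoded genes (adjusted p = 0.243) and 0.38 with the replicate block (adjusted p = 0.0639). The ratio of Fth1 to Ftl1 in CAC was 1.84 ± 0.188 (SD, n = 7). NCAC had the same mean ratio with a wider spread, 1.84 ± 0.345 (SD, n = 5), and Con had 2.13 ± 0.194 (SD, n = 5). The summed ferritin level averaged 5555 TPM in CAC, 4033 TPM in NCAC and 3625 TPM in Con.

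The 2 export genes went opposite ways. Cp, the ferroxidase ceruloplasmin, ran from 13.0 through a median of 30.0 to 35.2 TPM in CAC at 8 weeks. Con libraries held 7.39, 9.04, 6.21, 7.28 and 5.17 TPM, and NCAC libraries 6.24, 9.71, 9.54, 6.66 and 10.2 TPM. All CAC libraries were above all others of that week, and 6 of the 7 were at 23.6 TPM or more, with CAC library 3 alone near the other groups. The mean was 3.88 times that of Con, a difference of 1.78 (SE 0.18, adjusted p = 1.25e-10), which was 1.45 after rescaling. Against NCAC the difference was 1.54 (SE 0.18, adjusted p = 5.99e-09), and without CAC library 3 the difference from Con was 1.94. None of the 76 alternative fits of Cp at 6 and 8 weeks lost a call.

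Slc40a1, the exporter ferroportin, was lower in CAC. CAC libraries 1 to 7 at 8 weeks held 10.03, 2.36, 2.02, 1.54, 1.02, 4.18 and 0.99 TPM. Con libraries held 5.41, 5.31, 5.74, 4.92 and 5.61 TPM. Of the 7 CAC libraries 6 lay below all Con libraries, and library 1 lay above all of them. The difference was -0.89 (SE 0.29, adjusted p = 0.0100), -1.16 after rescaling (adjusted p = 0.00378) and -1.16 without CAC library 1 (adjusted p = 0.000382). In a fit of the 2 groups alone the call was lost (adjusted p = 0.0532). NCAC libraries held 3.35, 8.18, 5.94, 1.93 and 3.22 TPM, and the difference of CAC from NCAC was -0.56 (95% interval -1.15 to 0.03, adjusted p = 0.123). Without CAC library 1 that difference was -0.84 (adjusted p = 0.0116).

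**Figure D3:**
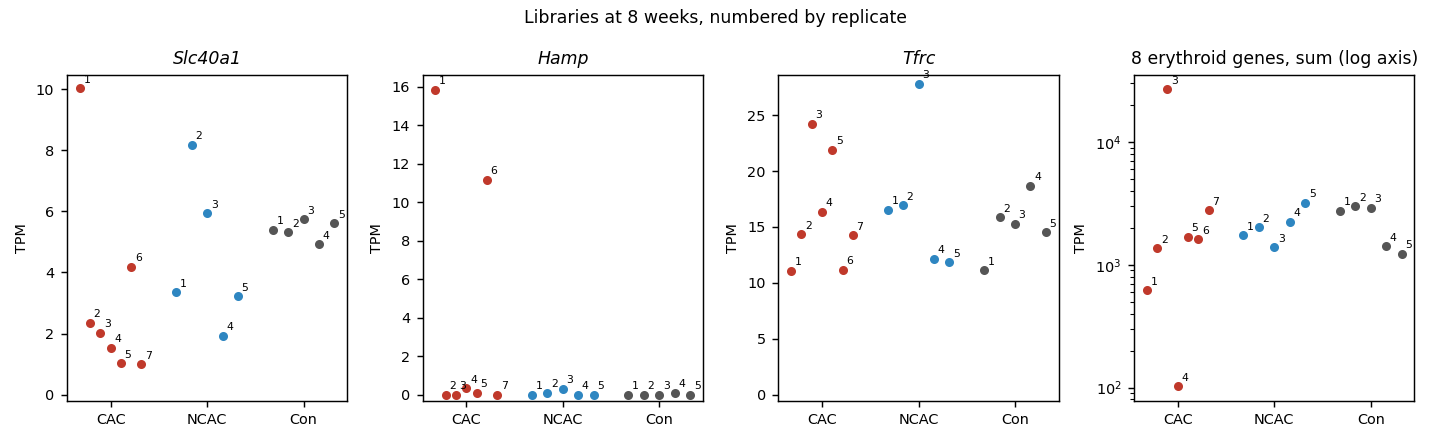
TPM of Slc40a1, Hamp and Tfrc and the sum of 8 erythroid genes (log axis) in each library of 8 weeks, numbered by replicate. CAC libraries 1 and 6 are the highest CAC libraries in Slc40a1 and the only libraries of that week with Hamp above 1 TPM, and CAC library 3 has the highest erythroid sum.

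Hepcidin, the hormone that makes cells degrade the ferroportin protein, is encoded by Hamp, which did not reach the level needed for testing. It was at 15.9 TPM in CAC library 1 and 11.2 TPM in CAC library 6 of 8 weeks, the same libraries that held the most Slc40a1 in that group. The other 5 CAC libraries of that week were between 0 and 0.332 TPM, and the highest value in any other library of the series was 2.99 TPM. Albumin (Alb), a defining hepatocyte gene, was at 0.0388 and 0.102 TPM in those 2 libraries and at most 0.524 TPM in the libraries of 8 weeks. The sum of 8 listed hepatocyte genes, Alb among them, was 2.92 TPM in CAC library 1, the highest of that week. In CAC library 6 it was 1.12 TPM, the lowest of its group. Con libraries held 0.748 to 0.940 TPM and NCAC libraries 0.723 to 1.56 TPM. The source of the Hamp RNA was not tested.

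The sensor genes showed small differences. Ireb2 held 13.5 to 18.8 TPM in CAC at 8 weeks and 12.8, 15.6, 13.2, 16.0 and 12.9 TPM in Con. The ranges overlapped and the difference was 0.22 (95% interval 0.00 to 0.43, adjusted p = 0.0775). It passed the test without CAC library 3 (0.26, adjusted p = 0.0341) or Con library 4 (0.26, adjusted p = 0.0485), and after rescaling it was -0.12 (adjusted p = 0.436). Aco1 held 58.1 to 98.3 TPM in CAC and 84.6, 96.7, 83.8, 90.0 and 62.7 TPM in Con, with a difference of -0.02 (95% interval -0.28 to 0.23). After rescaling Aco1 was called lower in CAC than in Con (-0.38, adjusted p = 0.0308) and than in NCAC (-0.38, adjusted p = 0.0312), so its call depends on the scaling.

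Against NCAC at 8 weeks 4 of the 10 genes were called, all higher (Cp, Steap4, Fth1 and Ftl1), beside 37.3% of all tested genes called higher (39.3% in either direction). After rescaling 2 were called higher (Cp and Steap4) and 1 lower (Aco1), beside 12.7% and 11.9%. Cp, Steap4 and Fth1 did not overlap between CAC and NCAC libraries, beside 6.82% of all genes.

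At 6 weeks Steap4 and Cp already stood apart in CAC. Steap4 held 147, 171, 190, 169 and 215 TPM in CAC, 75.7, 108, 76.4, 96.5 and 89.5 TPM in NCAC, and 37.9, 134, 66.9, 61.8 and 47.0 TPM in Con. Cp held 27.0, 16.6, 25.4, 19.3 and 19.4 TPM in CAC, 8.92, 10.3, 5.41, 6.66 and 9.07 TPM in NCAC, and 5.64, 9.37, 6.98, 5.46 and 5.58 TPM in Con. In both genes every CAC library was above every NCAC and Con library, beside 15.2% of all tested genes against Con and 6.41% against NCAC. Steap4 differed from Con by 1.47 (SE 0.25, adjusted p = 2.28e-05) and Cp by 1.57 (SE 0.20, adjusted p = 7.97e-08), and both were called after rescaling, the only 2 of the 10, beside 8.35% of all genes. Against NCAC the differences were 0.99 (adjusted p = 0.00629) for Steap4 and 1.32 (adjusted p = 5.16e-06) for Cp.

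In all, 3 of the 10 genes were called higher against Con at 6 weeks, beside 20.7% of all tested genes (21.7% in either direction), and 2 against NCAC, beside 5.82% (7.77% in either direction). The remaining call against Con was Ireb2, at 14.7, 16.8, 14.6, 17.5 and 15.3 TPM in CAC and 13.0, 16.0, 9.22, 13.7 and 10.4 TPM in Con, which overlapped. Its difference of 0.34 (adjusted p = 0.0311) fell to 0.13 after rescaling (adjusted p = 0.562), and it was lost without CAC library 2 (adjusted p = 0.0620) or 4 (0.0852) or Con library 3 (0.133) or 5 (0.108), without mitochondrially encoded genes (0.821) and in a fit of the groups compared alone (0.0877). Slc40a1 held 2.14, 2.55, 1.11, 3.32 and 1.68 TPM in CAC and 4.79, 3.25, 3.00, 2.88 and 5.32 TPM in Con, a difference of -0.63 (95% interval -1.26 to 0.01, adjusted p = 0.138), which a fit of the groups compared alone called (adjusted p = 0.0495). CAC library 4 was the only CAC library within the Con range. Trf differed by 0.94 (95% interval 0.06 to 1.82, adjusted p = 0.109), and without Con library 2, which held 146 TPM against 39.8 to 78.4 TPM in the others, by 1.24 (adjusted p = 0.0386). Ftl1 held 2181, 1795, 1854, 1503 and 1803 TPM in CAC and 1100, 1685, 1397, 1725 and 1370 TPM in Con, and CAC library 4 lay within the Con range. Its difference was 0.34 (95% interval 0.02 to 0.65, adjusted p = 0.108), which passed the threshold without Con libraries 3 and 4 of 4 weeks (adjusted p = 0.0488), whose spread enters the shared error.

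At 4 weeks Steap4 was the 1 gene called against Con, beside 3.85% of all tested genes. It held 97.2, 169, 98.4, 152 and 182 TPM in CAC and 77.0, 57.5, 105, 55.7 and 68.6 TPM in Con. Con library 3 lay above CAC libraries 1 and 3, and the difference was 0.92 (SE 0.25, adjusted p = 0.0252) and was also called after rescaling (adjusted p = 0.0068), the only 1 of the 10, beside 5.51% of all genes. The call was lost without CAC library 2 (adjusted p = 0.113), CAC library 4 (0.0630), CAC library 5 (0.0563) or Con library 4 (0.110), and also without Con libraries 3 and 4 together (0.0872) and in a fit of the groups compared alone (0.484). Against NCAC no gene of the 10 was called by limma, beside 0.588% of all genes, with 2 of the 10 at an unadjusted p under 0.05. Steap4 was nevertheless higher in each CAC library than in each NCAC library (91.6, 85.3, 75.3, 92.0 and 65.5 TPM), beside 2.07% of all genes, with a difference of 0.72 (95% interval 0.23 to 1.22, adjusted p = 0.215).

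The ferritin genes in Con at 4 weeks rested on 2 libraries. Fth1 held 2612, 2666, 5070, 4009 and 2687 TPM, and Ftl1 1096, 1280, 2144, 2242 and 1072 TPM. Libraries 3 and 4 were thus far above the other 3 in both genes, and Slc11a2 was also highest in them (19.8 and 17.1 TPM against 10.7 to 13.2 TPM). The share of mitochondrially encoded genes was 39.6% in library 3 and 39.7% in library 4, against a group median of 57.1%. Rescaling divided these libraries by 1.352 and 1.349, more than any other library of the series, so they stood apart beyond the ferritin genes. Library 4 also held 19805 TPM from the skeletal muscle genes, against 455 to 9193 TPM in the other Con libraries of 4 weeks.

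At 2 weeks none of the 10 genes was called by limma in CAC against Con, beside 4.63% of all tested genes, with 3 of the 10 at an unadjusted p under 0.05 (Cp, Trf and Ireb2). None was called against NCAC, beside 0.0397%, with 2 of the 10 at an unadjusted p under 0.05 (Cp and Ireb2). Cp held 10.5, 9.78, 13.1, 10.9 and 9.27 TPM in CAC, 5.27, 5.70, 7.65, 8.69 and 8.48 TPM in NCAC, and 11.6, 6.57, 7.07, 6.72 and 6.20 TPM in Con. CAC did not overlap NCAC, beside 3.53% of all genes, and Con library 1 was within the CAC range. That library also held 174 TPM from 8 hepatocyte genes, against 0.564 to 9.87 TPM in the other Con libraries of 2 weeks. The part of liver RNA in its Cp level was not tested. Without that library the Cp difference was 0.61 (adjusted p = 0.105). With all libraries it was 0.47 (95% interval 0.07 to 0.87, adjusted p = 0.196) from Con and 0.54 (95% interval 0.14 to 0.94, adjusted p = 0.272) from NCAC. Steap4 differed from Con by 0.48 (95% interval -0.01 to 0.98). In the same comparison 8 of 9 tested skeletal muscle markers, 8 of 11 macrophage markers and 3 of 6 fibroblast markers were called higher. The muscle genes summed to 1301 to 14718 TPM in CAC and 83.3 to 2428 TPM in Con, and the macrophage genes to 172 to 261 TPM and 91.4 to 132 TPM. Their part in the differences at 2 weeks, and in the changes from that week, was not tested.

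In NCAC against Con none of the 10 genes was called by limma at any week, beside 0% of all tested genes at 2, 6 and 8 weeks and 0.00795% at 4 weeks. At an unadjusted p under 0.05 there were 0 of the 10 at 2, 4 and 8 weeks and 1 at 6 weeks, Ireb2 with a difference of 0.26. Cp differed by -0.07, -0.07, 0.25 and 0.24 at 2, 4, 6 and 8 weeks, with group means of NCAC between 7.14 and 8.47 TPM. Steap4 in NCAC averaged 81.9 to 95.6 TPM over the 4 weeks.

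The change of the CAC difference from Con between weeks was tested directly. From 2 to 6 weeks it grew for Cp by 1.10 (SE 0.28, adjusted p = 0.0312), the only 1 of the 10, beside 1.33% of all tested genes. That call was lost without CAC library 1 (adjusted p = 0.0609) or 2 (0.0623) or Con library 1 (0.0893) of 2 weeks, or CAC library 1 (0.0923) or Con library 1 (0.0511) or 5 (0.0658) of 6 weeks, and with no filter on low values (0.0518). For Steap4 the change was 0.99 (95% interval 0.29 to 1.69, adjusted p = 0.132), and 1.26 without Con library 2 of 6 weeks (adjusted p = 0.0369). From 2 to 8 weeks the difference grew by 1.31 for Cp (SE 0.27, adjusted p = 0.00185) and by 0.53 for Fth1 (SE 0.16, adjusted p = 0.0294). These were 2 of the 10, beside 11.6% of all genes. Mean Cp went from 10.7 to 27.2 TPM in CAC and from 7.62 to 7.02 TPM in Con. Mean Fth1 rose from 3041 to 3599 TPM in CAC and fell from 3033 to 2464 TPM in Con. The change of Cp was called in each fit that left out a library, and it was 1.09 after rescaling (adjusted p = 0.00265), the only 1 of the 10 called then, beside 6.84% of all genes. Fth1 was not called after rescaling (0.30, adjusted p = 0.122), with the replicate block (0.48, adjusted p = 0.0717), with no filter (0.0557), without mitochondrially encoded genes (0.20, adjusted p = 0.228), or without CAC library 5 (adjusted p = 0.0502) or Con library 1 (0.0516) of 2 weeks, or CAC library 2 (0.0567) or Con library 1 (0.0511) or 5 (0.0641) of 8 weeks. Steap4 (0.84, adjusted p = 0.0870) and Ftl1 (0.56, adjusted p = 0.0685) missed the threshold and passed it without CAC library 3 of 8 weeks (0.97, adjusted p = 0.0310, and 0.62, adjusted p = 0.0323), so 4 of the 10 were called without that library, beside 22.5% of all genes in that fit. Ftl1 also passed it without Con libraries 3 and 4 of 4 weeks (adjusted p = 0.0238) and in a fit of the groups compared alone (0.0245).

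The order of the 12 group means is given as a description, without a test. Cp averaged 27.2 ± 7.58 TPM (SD, n = 7) in CAC at 8 weeks, 21.5 ± 4.42 TPM (n = 5) at 6 weeks, 10.7 ± 3.13 TPM at 4 weeks and 10.7 ± 1.47 TPM at 2 weeks, and the 8 other groups lay between 6.60 and 8.47 TPM. The step from CAC at 6 weeks to CAC at 4 weeks was the 1 place in that order where the ranges of mean ± SD did not touch. Steap4 had the same leading order, with CAC at 185 ± 76.3 TPM (n = 7) at 8 weeks, 178 ± 25.4 TPM (n = 5) at 6 weeks, 140 ± 39.7 TPM at 4 weeks and 128 ± 45.0 TPM at 2 weeks, and 68.8 to 95.6 TPM in the other 8 groups. No neighbouring groups of Steap4 were separated by their spread, nor were those of the other 8 genes.

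CAC at 8 weeks was also the highest group mean for Fth1, Ftl1, Trf and Ireb2, and the lowest was Con at 8 weeks for Fth1 (2464 ± 291 TPM) and Ftl1 (1161 ± 124 TPM). For Slc40a1 the highest mean was Con at 8 weeks, with 5.40 ± 0.317 TPM (n = 5), and the lowest CAC at 6 weeks, with 2.16 ± 0.844 TPM (n = 5). Group means ran from 15.1 to 23.6 TPM for Tfrc, 10.8 to 14.4 TPM for Slc11a2, 12.5 to 16.6 TPM for Ireb2 and 79.2 to 115 TPM for Aco1. The top of the Tfrc range, Con at 6 weeks, rested on library 1 with 49.3 TPM, the other 4 being at 10.3 to 22.3 TPM. Aco1 was highest in CAC at 2 weeks (115 ± 8.94 TPM) and lowest in Con at 6 weeks (79.2 ± 7.35 TPM).

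Other genes of iron and heme handling were counted in 4 lists for CAC against Con at 8 weeks. Their counts stand beside 52.1% of all tested genes called higher and 1.97% lower, and after rescaling beside 13.4% and 13.1%. Of 14 tested genes of iron transport and storage 8 were called higher and 0 lower, near the background, and 5 were called higher after rescaling. The zinc and iron importer Slc39a14 averaged 85.6 TPM in CAC and 6.49 TPM in Con, a difference of 3.17 (SE 0.41, adjusted p = 3.45e-08), larger than that of any of the 10 genes. The smallest called difference in this list was Ncoa4, the receptor that delivers ferritin for breakdown, at 0.28 (adjusted p = 0.0212), which turned to -0.07 after rescaling. Its call was also lost with the replicate block (0.23, adjusted p = 0.103), in a fit of the groups compared alone (0.0585) and without CAC library 2 (0.0659) or 7 (0.0519) or Con library 1 (0.0629). Further called genes, named after their values were seen, were the hemopexin receptor Lrp1 (1.97), the siderophore binder Lcn2 (2.21), Tfr2 (1.01) and the ferritin receptor Scara5 (0.87). Without mitochondrially encoded genes Lcn2 (adjusted p = 0.0622), Tfr2 (0.0529) and Scara5 (0.0667) were not called.

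Heme genes were called higher in 15 of 21 and lower in 0 (6 and 1 after rescaling). The haemoglobin scavenger haptoglobin, Hp, averaged 5951 TPM in CAC and 172 TPM in Con, a difference of 4.66 (SE 0.48, adjusted p = 1.14e-10). Hmox2, the constitutive heme oxygenase, had the smallest called difference (0.29), which turned to -0.06 after rescaling. The inducible heme oxygenase Hmox1 (1.73, adjusted p = 1.30e-06), which releases iron from heme, and the haptoglobin receptor and macrophage marker Cd163 (2.53) were also called and were named after their values were seen. In CAC library 3 Hmox1 was at 9.92 TPM and Slc39a14 at 9.98 TPM, the lowest of their group.

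In the list of the systemic iron hormone pathway, 2 of 10 tested genes were called higher and 1 lower, and after rescaling 1 was higher and 2 lower. Hfe, a partner of the transferrin receptors, rose by 0.87 (adjusted p = 8.23e-08), and Bmp6, the ligand that drives hepcidin, fell by 0.44 (adjusted p = 0.0260), a call lost without CAC library 2 (adjusted p = 0.0976), 4 (0.0657) or 7 (0.0664) or Con library 2 (0.0760) or 5 (0.0748), or in a fit of the groups compared alone (0.104). Of 20 mitochondrial iron genes 5 were called higher and 0 lower on the TPM scale, which is a smaller share than over all genes. After rescaling 0 were called higher and 9 lower, so the counts in each direction depend on the scaling. The mitochondrial iron importer mitoferrin 2, Slc25a28, differed by 0.63 (adjusted p = 0.000107), and by 0.28 after rescaling (adjusted p = 0.0517). Hspa9, a mitochondrial chaperone that takes part in iron-sulphur cluster transfer, differed by 0.28 (adjusted p = 0.0129) and by -0.08 after rescaling, and its call was lost without CAC library 5 (0.20, adjusted p = 0.0604).

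**Figure D4:**
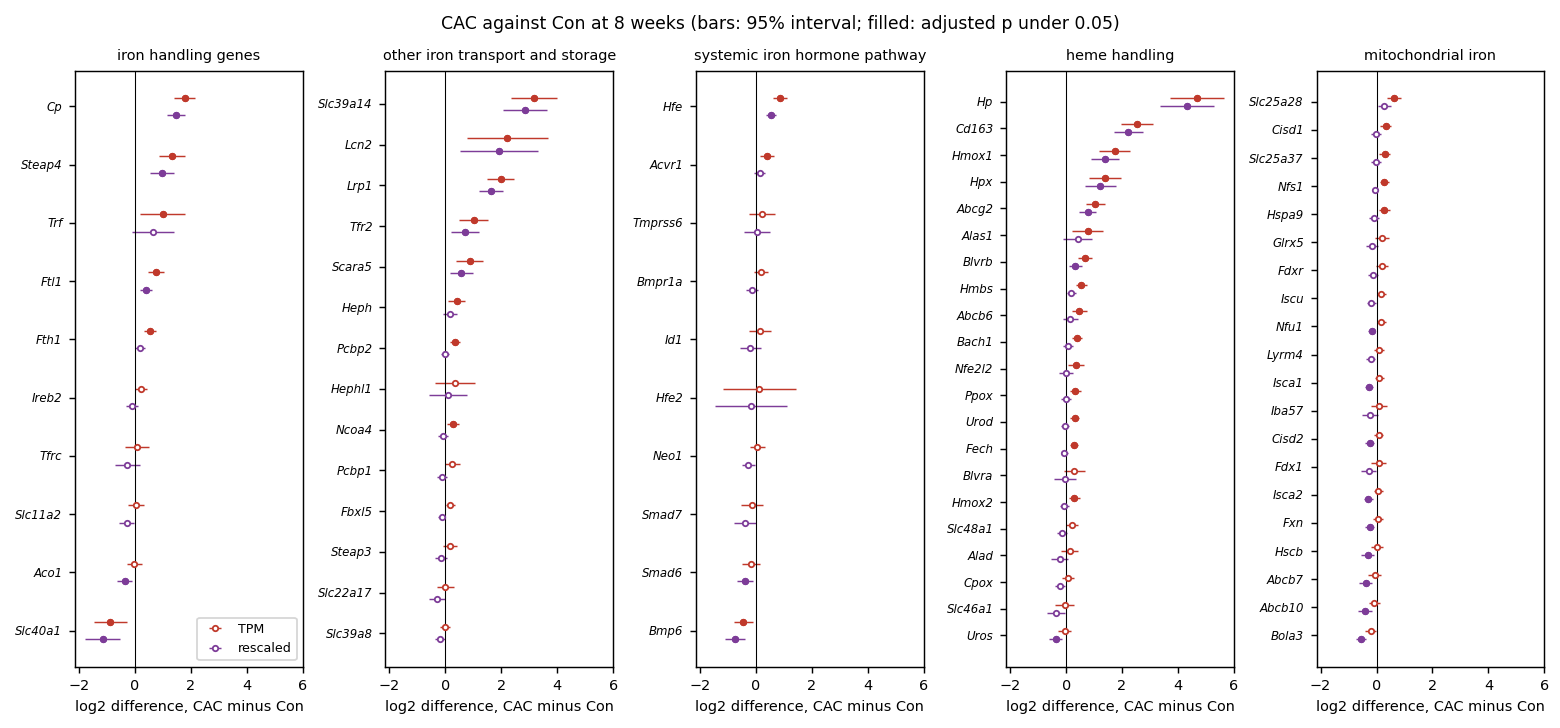
Log2 difference of TPM + 1 between CAC and Con at 8 weeks (horizontal axis, with 95% intervals) for the 10 iron handling genes and 4 lists of related genes, on TPM and after rescaling, filled where the adjusted p is under 0.05. Hp at 4.66 and Slc39a14 at 3.17 lie farthest to the right. The median of the mitochondrial iron genes moves from 0.10 to -0.22 after rescaling.

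The tested genes whose pattern was most like that of the 3 genes with the largest differences were found by Pearson r over the 12 group means of log2(TPM + 1). They were Apoc2_1, Map3k8 and Fam167b for Cp (r = 0.98 each), Pcdhb17, Chp1 and Fbxo45 for Steap4 (r = 0.98, 0.97 and 0.97), and Ltc4s, Osr1 and Commd8 for Trf (r = 0.95, 0.94 and 0.94). These values describe 12 points that share weeks and libraries, and several of the genes were near 1 TPM (Map3k8 0.935 TPM, Fam167b 0.536 TPM, Pcdhb17 1.16 TPM).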

How the data were processed

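Total RNA of brown fat (Trizol) went into stranded TruSeq mRNA libraries read on an Illumina NovaSeq, per the labels' protocols. The deposited values are TPM per gene symbol, with genome build mm10 per the submitters' processing notes. Aligner, annotation and quantifier are not given in the sources used here. All 62 columns matched 1 sample each, and 0 pairs of libraries were identical. Depth is unknown. The limma p-values set each difference against the spread between libraries within groups, with an estimate per gene that all groups share.

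Values were taken as log2(TPM + 1) for genes with at least 1 TPM in 5 libraries. A model of the 12 group means over all libraries was made in R 4.3.3 by limma 3.58.1 with a trended prior variance, and 14 contrasts got Benjamini-Hochberg adjustment over all 12581 tested genes. The script was tested on simulated data. The 10 genes, the lists and the tests were chosen with earlier results of these data known. Other genes were chosen for mention by rule, as the called gene with the highest and that with the lowest difference of each list with a mean of at least 5 TPM, and the 3 genes most like each of the 3 largest differences, without predicted genes. A listed gene of the mitochondrial iron list is not reported here and is not in its counts. Alternatives were a pseudocount of 0.1, no filter, a filter at 5 TPM, median-of-ratios rescaling, removal of mitochondrially encoded genes, only the groups compared, the replicate block, omission of Con libraries 3 and 4 of 4 weeks, and omission of each library. Sequences came from GENCODE M21 transcripts and RefSeq promoters (GRCm38.p6). Figures used Python 3.11.15 and matplotlib 3.10.9.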

Additional observations from a re-analysis of the deposited data

Results flagged for a closer look

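Among 120 sets of libraries (10 genes in 12 groups), 6 had 1 library farther from the rest than 1 in 20 such sets would by chance, and 6 would be so by chance alone. These were Slc40a1 in CAC library 1 of 8 weeks (10.03 TPM, the next library at 4.18), Steap4 in Con library 5 of 2 weeks (107 TPM, next 83.8) and Cp in Con library 1 of 2 weeks (11.6 TPM, next 7.07). The others were Ireb2 in Con library 1 of 2 weeks (12.1 TPM, next 13.7), Aco1 in CAC library 4 of 6 weeks (110.0 TPM, next 84.6) and Aco1 in NCAC library 1 of 6 weeks (79.1 TPM, next 94.98).

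The difference between CAC and Con itself differed between weeks in a direct test for Cp from 2 to 6 weeks (1.10), for Cp from 2 to 8 weeks (1.31) and for Fth1 from 2 to 8 weeks (0.53).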

How the results depend on the processing

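Counts of the 10 genes called moved by more than 1.5 times, or to or from 0, in these cases. For CAC against Con at 2 weeks a fit of only the groups compared called 1 gene (Trf, adjusted p = 0.0280) in place of 0. At 4 weeks the count went from 1 to 0 in a fit of only the groups compared and without Con libraries 3 and 4. For the change from 2 to 6 weeks it went from 1 to 0 with no filter. For the change from 2 to 8 weeks it went from 2 to 1 with no filter, after rescaling, after removal of mitochondrially encoded genes and with the replicate block. Smaller moves were 3 to 2 at 6 weeks and 4 to 3 against NCAC at 8 weeks after rescaling, 6 to 5 at 8 weeks after rescaling, and 4 in place of 3 at 6 weeks without Con libraries 3 and 4. The other counts moved by 1 gene or not at all.

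With each library left out in turn, CAC against Con called 0 to 0 genes at 2 weeks, 0 to 1 at 4, 2 to 4 at 6 and 5 to 7 at 8 weeks, and CAC against NCAC 0 to 0, 0 to 0, 2 to 2 and 4 to 5. NCAC against Con called 0 at each week, and the changes called 0 to 2 (to 6 weeks) and 1 to 4 (to 8 weeks).

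Called differences at 8 weeks from Con that turned sign, or that turned sign and were then called, were Hspa9 (-0.077), Hmox2 (-0.063) and Ncoa4 (-0.073) after rescaling, and Hspa9 (-0.12), Hmox2 (-0.11), Ncoa4 (-0.12) and Slc11a2 (-0.35) after removal of mitochondrially encoded genes. The uncalled differences of Ireb2 (-0.12), Tfrc (-0.27) and Slc11a2 (-0.30) also turned sign after rescaling. Rescaling releases the fixed total of TPM, whereas removal of mitochondrially encoded genes sets a new fixed total over the other genes.

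The replicate numbers gave no uniform pairing: same-numbered libraries correlated between -0.39 and 0.48. Libraries were closest to their own number most often in CAC against NCAC at 4 weeks, in 3 of 5. As a block the replicate numbers ended the calls of Trf (0.95) and Ncoa4 (0.23) against Con and Ftl1 (0.38) against NCAC at 8 weeks and the change of Fth1 (0.48).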

Other observations

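Markers of other tissues were low or uneven. The 8 hepatocyte genes summed to at most 2.92 TPM in the libraries of 8 weeks, but to 174 TPM in Con library 1 of 2 weeks and 10.01 TPM in CAC library 3 of 4 weeks. Of 4 tested neutrophil genes 4 were called higher in CAC than in Con at 8 weeks, beside 52.1% of all tested genes, with sums of 13.6 to 54.0 TPM against 6.55 to 14.7 TPM. Of 6 gland epithelium genes 5 were called lower in CAC, beside 1.97% of all tested genes, with sums of 1.08 to 37.4 TPM against 16.0 to 115 TPM. None of 5 tested erythroid genes was called by limma. The part of these cells in the levels of the 10 iron genes was not tested.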
